A study of Mus musculus with 9 samples.

Results

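The genes described here are 42 genes of DNA replication and cell division, a fixed list of proliferation, replication and mitosis genes read in every library of the series. All 42 were found among the 55453 gene symbols of the count files, and all 42 passed the filter on low counts that left 19166 genes for testing. The list holds 18 genes whose products act before or during S phase, 22 whose products act in mitosis, and 2, Ccna2 and Mybl2, that act in both and stayed out of comparisons between the phases. The rule that lists them uses no measured value, though the members were chosen with earlier results of these data known.

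As background, a cell that commits to divide first loads the MCM helicase onto replication origins with the help of Cdc6 and Cdt1, and cyclin E with Cdk2 and the E2F factors then starts DNA synthesis. Later, Cdk1 with the B-type cyclins drives the cell into mitosis, where the Aurora and Polo kinases, kinetochore proteins and kinesin motors separate the chromosomes. In the late embryonic pancreas, acinar, ductal and endocrine cells and the surrounding mesenchyme still divide, and transcripts of these genes mark the dividing cells.

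The series measured RNA of whole mouse pancreas at stage e18.5 by sequencing, with 9 libraries in 3 groups of 3 on a mixed C57BL6 background. The groups were labelled Pdx1:Cre;Grg3Grg4, Pdx1:Cre;Grg3 and Pdx1:Cre, so all carried the Pdx1:Cre transgene and the last served as control. Grg3 and Grg4 are Groucho-family co-repressors encoded by Tle3 and Tle4. Cre under the Pdx1 promoter acts in the pancreatic epithelial lineage, so mesenchyme, vessels, nerves and blood cells in the organ are not its targets, and the labels give no further detail of the Grg alleles. The design text counts 3 embryos per genotype but does not say whether each library was 1 embryo, so p-values measure the spread between these libraries.

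Counts over the whole Tle3 gene, named in the labels as Grg3, were higher, not lower, in libraries labelled Grg3Grg4 or Grg3 than in control libraries. Tle3 averaged 135 ± 10.4 CPM (gene counts scaled to a library total of 1e+06) in libraries labelled Grg3Grg4 and 153 ± 12.1 CPM in those labelled Grg3, against 64.8 ± 2.5 CPM in control libraries (SD, n = 3 each). It rose by log2 1.05 and 1.24 over control (edgeR quasi-likelihood test, adjusted p = 0.000558 and 0.00027). Tle4 averaged 11.6 CPM in libraries labelled Grg3Grg4, 12.2 CPM in those labelled Grg3 and 7.77 CPM in control libraries, and was not called over control (adjusted p = 0.155 and 0.132). Counts cover whole genes, and the labels do not say which part of the gene each allele alters, so the groups are named below by their labels.

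The libraries differed in more than genotype. Acinar enzyme transcripts, 34 genes in all, summed to between 266913 and 304626 CPM in libraries labelled Grg3Grg4 and between 217748 and 416633 CPM in those labelled Grg3, against 404293 to 467432 CPM in control libraries. The 14 liver markers summed to 976 to 2211 CPM in libraries labelled Grg3Grg4, 511 to 1988 CPM in those labelled Grg3 and 376 to 401 CPM in control libraries. Of these, 10 were called higher for Grg3Grg4 over control (all genes 2.14%) and 9 for Grg3 over control (all genes 1.4%), and 0 lower. Their median log2 changes were 6.36 and 5.33. Alb had 257, 362 and 811 CPM in libraries labelled Grg3Grg4 and 636, 37.9 and 220 CPM in those labelled Grg3. In control libraries it had 5.47, 2.37 and 2.49 CPM. The 14 muscle markers summed to 507, 3526 and 235 CPM in libraries labelled Grg3Grg4 and 362, 975 and 432 CPM in those labelled Grg3, against 188, 146 and 136 CPM in control libraries, and Tnnc2 was the only one at 0 in a group, among Grg3 and among control libraries. The 16 macrophage and leukocyte markers, of cells that can also divide, summed to 311 to 533 CPM in libraries labelled Grg3Grg4, 499 to 556 CPM in those labelled Grg3 and 389 to 460 CPM in control libraries. The 15 endocrine markers summed to 2140 to 4552 CPM in libraries labelled Grg3Grg4 and 3948 to 6203 CPM in those labelled Grg3, against 6331 to 7644 CPM in control libraries, so both groups lay below control. No acinar, endocrine or duct marker was at 0 in any group, as the pancreas label requires, and the part of these other cells in the values below was not tested. All 3 libraries labelled Grg3Grg4 came from male embryos by Xist and 4 Y-linked genes, while each of the other groups held 1 male and 2 female libraries. Gene counts summed to between 46817453 and 62744499 per library, and each of the 42 genes had between 132 and 17278 counts in every library.

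The promoters of these genes were searched for motifs of the factors that act in each phase. E2F factors bind motifs in S phase promoters, while many mitotic promoters carry a cell cycle homology region (CHR, TTTGAA), bound by the MuvB complex, together with CCAAT boxes, bound by NF-Y. The 250 bases before the RefSeq start of each gene were searched on both strands. The search covered 4 E2F motifs, spelled TTGGCGC, then TTCCCGC, then TTCGCGC, then TTGCCGC, and also the CHR letters and the CCAAT box. RefSeq promoters on GRCm38.p6 were matched for 33 of the 42 genes. An E2F motif stood in 7 of 14 S phase promoters (50%) and 3 of 18 mitotic promoters (16.7%), against 13.1% of the promoters of all genes tested and 7.97% of all 27025 promoters. TTTGAA stood in 1 of 14 S phase promoters (7.14%) and 7 of 18 mitotic promoters (38.9%), against 11% of genes tested and 16.3% of all promoters. CCAAT stood in 64.3% of the S phase and 88.9% of the mitotic promoters, against 35.8% of genes tested and 34.5% of all promoters.

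The 190 bases before the RefSeq start are printed for 4 genes of each phase, to show how the motifs sit relative to that start. Capitals mark a motif on either strand, and a match describes letters, not a bound site. Mcm2, Pcna, Cdc6, Ccnb1, Cdc20 and Plk1 were set as examples by gene name, and Cdk2 and Mki67 were added after their values were seen. Cdk2 has E2F motifs starting 140 and 10 bases before the start, Mki67 has an E2F motif at 67 and TTTGAA at 116 and 98, and in Ccnb1 an E2F motif overlaps a CCAAT box. In Pcna and Plk1 the printed capitals mark CCAAT alone, which says only that the other letters searched are not in this window. On GRCm38.p6 the S phase windows are Cdk2 at chr10:128705052-128705241 (strand -), Cdc6 at chr11:98907961-98908150 (strand +), Mcm2 at chr6:88898781-88898970 (strand -), Pcna at chr2:132253181-132253370 (strand -). The mitotic windows are Mki67 at chr7:135716380-135716569 (strand -), Ccnb1 at chr13:100786487-100786676 (strand -), Cdc20 at chr4:118437344-118437533 (strand -), Plk1 at chr7:122159245-122159434 (strand +). By GENCODE M21, the annotation used for gene lengths, Cdc6 begins at chr11:98907801, so its printed window lies inside the gene. Pcna, Ccnb1 and Cdc20 begin there at chr2:132253314, chr13:100786570 and chr4:118437352 (strand -), so their windows lie partly inside the genes.
Cdk2: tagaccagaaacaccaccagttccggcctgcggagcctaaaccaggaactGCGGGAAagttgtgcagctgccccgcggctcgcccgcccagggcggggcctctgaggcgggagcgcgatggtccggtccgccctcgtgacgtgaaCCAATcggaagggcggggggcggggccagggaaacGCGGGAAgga
Cdc6: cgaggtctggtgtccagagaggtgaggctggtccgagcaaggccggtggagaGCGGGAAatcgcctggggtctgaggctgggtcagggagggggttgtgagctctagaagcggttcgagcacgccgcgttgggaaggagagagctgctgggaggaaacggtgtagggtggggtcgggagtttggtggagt
Mcm2: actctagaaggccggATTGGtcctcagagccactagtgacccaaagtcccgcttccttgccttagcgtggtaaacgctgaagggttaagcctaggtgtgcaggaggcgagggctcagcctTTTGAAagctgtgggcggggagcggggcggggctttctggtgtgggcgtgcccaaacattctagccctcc
Pcna: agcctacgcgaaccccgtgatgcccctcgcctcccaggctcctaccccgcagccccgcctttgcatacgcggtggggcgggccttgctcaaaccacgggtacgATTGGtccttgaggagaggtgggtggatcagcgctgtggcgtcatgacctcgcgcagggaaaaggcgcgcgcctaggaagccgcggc
Mki67: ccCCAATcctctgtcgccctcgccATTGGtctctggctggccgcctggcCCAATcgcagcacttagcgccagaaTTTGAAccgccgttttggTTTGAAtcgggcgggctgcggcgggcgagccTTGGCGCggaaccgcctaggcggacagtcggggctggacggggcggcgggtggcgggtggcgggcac
Ccnb1: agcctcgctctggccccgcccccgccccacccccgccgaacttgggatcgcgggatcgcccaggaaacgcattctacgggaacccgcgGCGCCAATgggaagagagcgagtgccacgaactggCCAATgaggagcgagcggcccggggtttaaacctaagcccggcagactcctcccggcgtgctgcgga
Cdc20: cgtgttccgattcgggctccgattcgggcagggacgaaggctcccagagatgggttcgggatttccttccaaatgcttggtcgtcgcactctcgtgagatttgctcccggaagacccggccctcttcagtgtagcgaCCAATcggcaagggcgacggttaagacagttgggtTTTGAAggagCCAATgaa
Plk1: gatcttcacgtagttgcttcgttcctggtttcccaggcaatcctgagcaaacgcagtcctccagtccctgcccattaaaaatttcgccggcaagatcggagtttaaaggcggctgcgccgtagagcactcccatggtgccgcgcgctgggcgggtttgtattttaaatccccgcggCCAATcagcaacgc

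The first result is that no member was called in any comparison at an adjusted p under 0.05 (edgeR quasi-likelihood test, Benjamini-Hochberg over 19166 genes). All genes were called at 2.14% for Grg3Grg4 over control, 1.4% for Grg3 over control and 0.188% for Grg3Grg4 over Grg3. The members nevertheless lay mostly above control: 40 of 42 had a fitted log2 change above 0 for Grg3Grg4 over control, and 33 of 42 for Grg3 over control. Their median log2 change was 0.18 and 0.12 in these comparisons, against 0.01 and 0.02 for all genes tested. Both comparisons use the same 3 control libraries, so the direction they share is no independent evidence. Between libraries labelled Grg3Grg4 and those labelled Grg3, 29 of 42 members lay above 0, with a median of 0.10, against -0.00 for all genes tested. With embryo sex as a term, 40 of 42 members lay above 0 for Grg3Grg4 over control, with a median of 0.25, and 0 were called. All Grg3Grg4 libraries were male, so that term rests on library 1, the only male, of each of the other groups. Since whole tissue was sequenced, more dividing cells and more of these transcripts per dividing cell cannot be told apart.

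At the looser mark of an unadjusted p under 0.05, 15 members (35.7%) passed for Grg3Grg4 over control, 14 of them higher and 1 lower, against 20.2% of all genes. For Grg3 over control 10 members (23.8%) passed, all higher, against 19.1% of all genes. For Grg3Grg4 over Grg3 it was 3 members (7.14%), fewer than the 17.3% of all genes. By complete separation of the libraries, 16 members (38.1%) had all 3 Grg3Grg4 values above all 3 control values, against 14.9% of all genes, and 1 had them all below, against 14.2%. The Grg3 libraries lay wholly above control for 10 members (23.8%; all genes 12.6%) and wholly below for 0 (all genes 12%). Between Grg3Grg4 and Grg3 libraries, 2 members (4.76%) were separated upward and 1 (2.38%) downward, against 11.8% and 9.3% of all genes.

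**Figure D1:**
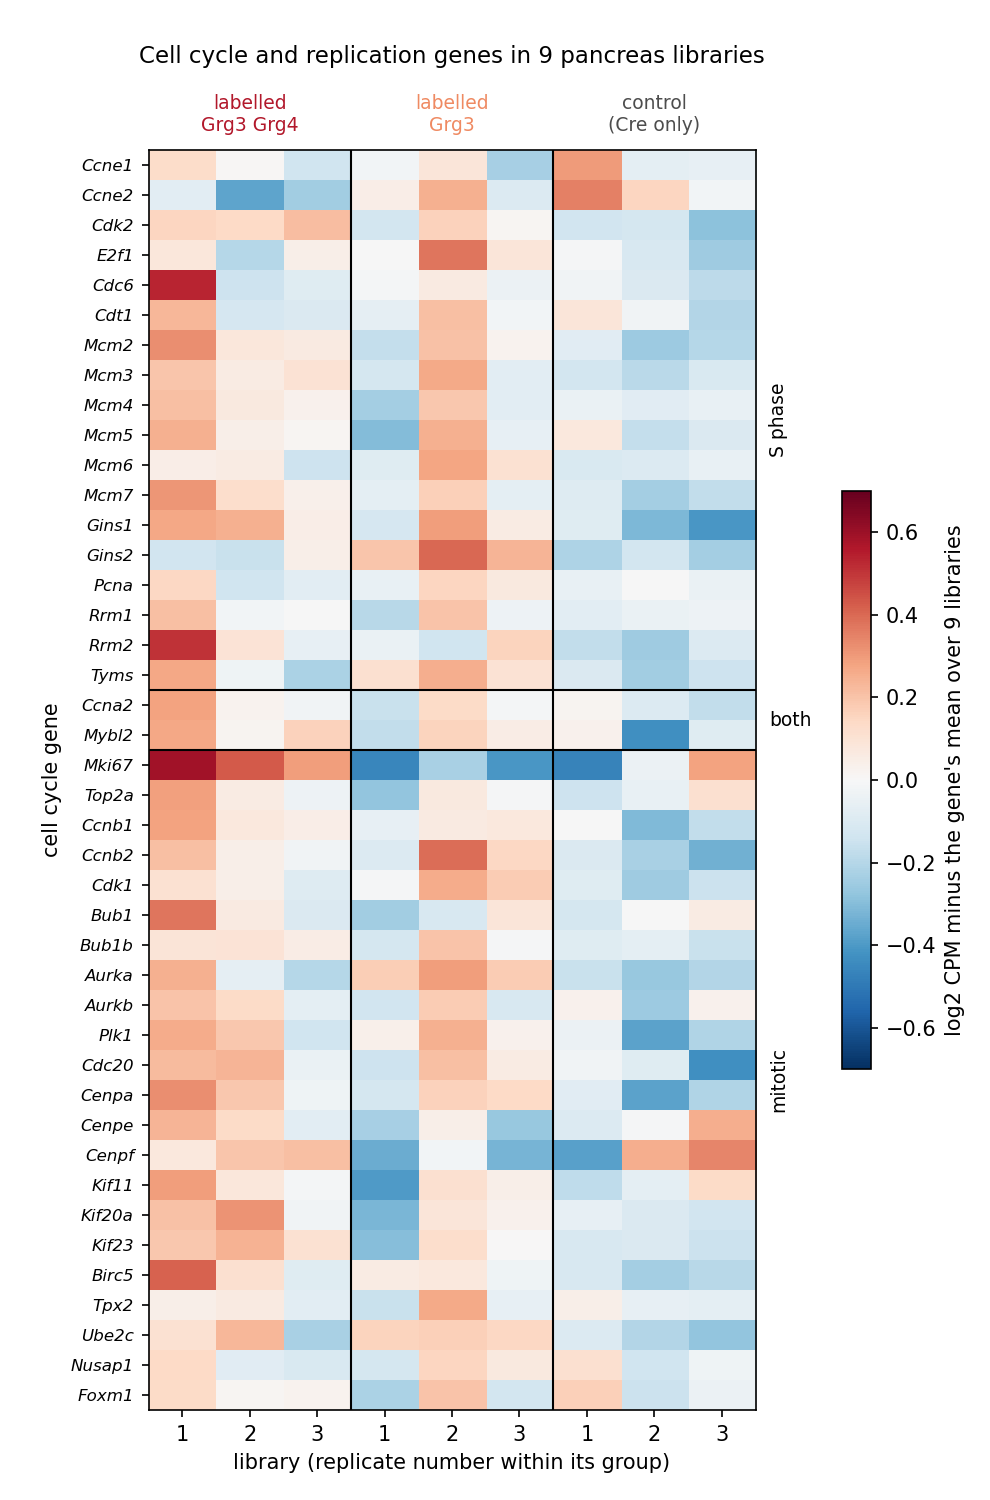
Log2 CPM of the 42 genes in the 9 libraries, each gene relative to its own mean over the libraries (colour, red above and blue below), with libraries grouped by label in columns and genes ordered by phase in rows. Library 1 of the group labelled Grg3Grg4 was the highest for 19 genes and library 2 of the group labelled Grg3 for 14. Control libraries 2 and 3 were the lowest for 14 and 11, library 1 labelled Grg3 for 10 and control library 1 for 2.

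The levels varied modestly from library to library. The ratio of the highest to the lowest library ran from 1.22 for Pcna to 2.08 for Mki67, with a median of 1.47, and 18 of the 42 genes reached 1.5. Single libraries carried much of the pattern. Without library 1 labelled Grg3Grg4, 35 of 42 members lay above 0 over control and the median was 0.10, and without library 2 labelled Grg3, 24 of 42 lay above 0 and the median was 0.04. The 14 erythroid markers, which mark a cell type that also divides in the embryo, summed to 3493, 1742 and 1775 CPM in libraries 1 to 3 labelled Grg3Grg4, 3425, 2621 and 1969 CPM in those labelled Grg3, and 2082, 1720 and 1720 CPM in control libraries. None of these markers was at 0 in any group and none was called. The 11 mesenchyme markers summed to 8983, 14263 and 9683 CPM in libraries 1 to 3 labelled Grg3. They summed to 9947 to 10166 CPM in libraries labelled Grg3Grg4 and 10068 to 11321 CPM in control libraries. The 9 endothelium markers summed to 898, 1199 and 842 CPM, 768 to 969 CPM and 943 to 1016 CPM in the same order. Library 2 labelled Grg3 was the highest of the 9 in both sums and the lowest in the acinar sum, at 217748 CPM. The part of blood cells, mesenchyme and vessels in the members' values was not tested.

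Levels between genes can be compared per kilobase of the longest annotated transcript. On that scale Pcna, the sliding clamp of DNA polymerases, was the highest in control libraries, at 47.8 CPM per kb, followed by Top2a, the topoisomerase that untangles mitotic chromosomes, at 25.2 CPM per kb. Cdc6 was the lowest, at 2.11 CPM per kb. The median member had 12.5 CPM per kb in libraries labelled Grg3Grg4, 11.8 in those labelled Grg3 and 10.8 in control libraries for the S phase genes. For the mitotic genes it had 8.99 CPM per kb in libraries labelled Grg3Grg4, 9.56 in those labelled Grg3 and 7.79 in control libraries.

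Among the replication genes, the 6 subunits of the MCM helicase, which unwinds DNA at the fork, all had fitted changes above 0 over control. They ran from log2 0.07 to 0.34 for Grg3Grg4 over control, with 4 of 6 separated upward (all genes 14.9%). Their range was 0.03 to 0.20 for Grg3 over control, with 1 of 6 separated upward (all genes 12.6%). Mcm2 had 77, 65 and 64.4 CPM in Grg3Grg4-labelled libraries and 54.8, 71 and 62.6 CPM in Grg3-labelled ones, against 58.3, 51.6 and 53.6 CPM in controls. All 3 Grg3Grg4 libraries lay above the control libraries, and the Grg3 values overlapped with both. The fitted change of Mcm2 for Grg3Grg4 over control was log2 0.34 (SE 0.11, adjusted p = 0.129), and for Grg3 over control log2 0.20 (SE 0.11, adjusted p = 0.341). Mcm7 had 71.4, 62.7 and 59.2 CPM in libraries labelled Grg3Grg4, 54.9, 64.8 and 55.1 CPM in those labelled Grg3, and 54.3, 48.9 and 51.2 CPM in control libraries. Control libraries were the lowest for Mcm7, below every library of the other groups, and its change was log2 0.32 (SE 0.10, adjusted p = 0.104) for Grg3Grg4 over control and log2 0.18 (SE 0.10, adjusted p = 0.34) for Grg3 over control. Mcm6 was the subunit with the smallest change for Grg3Grg4 over control, at log2 0.07.

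The GINS proteins join the MCM ring to form the active helicase, and the 2 measured here did not follow the same order of groups. Gins2 (GRCm38 chr8:120578633-120589304, minus strand) had 9.75, 9.61 and 11 CPM in Grg3Grg4-labelled libraries and 12.2, 14.1 and 12.6 CPM in Grg3-labelled ones, against 9.23, 9.8 and 9.09 CPM in controls. The 3 Grg3 libraries stood above all 6 others, and the Grg3Grg4 and control values overlapped. This was the member with the smallest p for Grg3 over control, log2 0.47 (SE 0.11, adjusted p = 0.0644), and it lay lower in libraries labelled Grg3Grg4 than in those labelled Grg3, log2 -0.36 (SE 0.11, adjusted p = 0.148). Gins1 had 4.65, 4.57 and 3.98 CPM in libraries labelled Grg3Grg4, 3.55, 4.72 and 4.01 CPM in those labelled Grg3, and 3.63, 3.1 and 2.9 CPM in control libraries. Its Grg3Grg4 libraries lay above control and its Grg3 libraries overlapped with both, at log2 0.45 (SE 0.18, adjusted p = 0.194) for Grg3Grg4 over control. Gins1 had the fewest counts of any member and the widest SE. The licensing factors Cdc6 and Cdt1 had changes of log2 0.06 to 0.23 for Grg3Grg4 over control and 0.09 to 0.10 for Grg3 over control, with overlapping groups. In Cdc6, library 1 labelled Grg3Grg4 stood alone at 15.7 CPM, against 9.57 to 11.3 CPM in the other 8 libraries.

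Cyclin E and its kinase Cdk2, which trigger entry into S phase, had fitted changes on opposite sides of 0 for Grg3Grg4 over control, except that Ccne1 was at log2 0.18 with no TMM scaling. Cdk2 (GRCm38 chr10:128697939-128705031, minus strand) had 36.1, 35.9 and 37.9 CPM in Grg3Grg4-labelled libraries and 29.8, 36.4 and 32.9 CPM in Grg3-labelled ones, against 29.6, 29.9 and 26.7 CPM in controls. The Grg3Grg4 libraries were close together and all above control, while 1 of the Grg3 libraries matched the control level. Cdk2 had the smallest p of all members for Grg3Grg4 over control, log2 0.35 (SE 0.09, adjusted p = 0.0756), and the change for Grg3 over control was log2 0.20 (SE 0.09, adjusted p = 0.262). Ccne2, which encodes cyclin E2, had 7.7, 6.26 and 6.84 CPM in libraries labelled Grg3Grg4, 8.35, 9.62 and 7.58 CPM in those labelled Grg3, and 10.4, 8.99 and 7.99 CPM in control libraries. It was the only member whose Grg3Grg4 libraries all lay below the control libraries, log2 -0.39 (SE 0.15, adjusted p = 0.172), and it was also lower than in libraries labelled Grg3 without separation, log2 -0.30 (SE 0.15, adjusted p = 0.323). Ccne1, which encodes cyclin E1, had 11.6, 10.7 and 9.65 CPM in Grg3Grg4-labelled libraries and 10.5, 11.3 and 9.04 CPM in Grg3-labelled ones, against 13.1, 10.1 and 10.2 CPM in controls. Control library 1 was the highest for Ccne1 and all groups overlapped, with changes of log2 -0.07 for Grg3Grg4 over control and -0.12 for Grg3 over control.

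E2f1, a transcription factor that activates S phase genes, had 27, 22.2 and 26.3 CPM in libraries labelled Grg3Grg4, 25.5, 33.2 and 27.1 CPM in those labelled Grg3, and 25.4, 23.6 and 21.5 CPM in control libraries. Every Grg3 library lay above the control libraries, by a small margin for library 1, and the Grg3Grg4 libraries overlapped with both groups. Its change was log2 0.28 (SE 0.12, adjusted p = 0.246) for Grg3 over control and log2 0.10 (SE 0.12, adjusted p = 0.702) for Grg3Grg4 over control. Pcna had 82.2, 67.5 and 70.7 CPM in Grg3Grg4-labelled libraries and 71.6, 82.3 and 78 CPM in Grg3-labelled ones, against 71.6, 74.2 and 71.9 CPM in controls. The groups overlapped and the change was near 0, log2 0.02 (SE 0.09, adjusted p = 0.939) for Grg3Grg4 over control. Among the genes of nucleotide supply, the ribonucleotide reductase subunit Rrm2 had a log2 change of 0.37 for Grg3Grg4 over control (adjusted p = 0.172) and the thymidylate synthase gene Tyms one of 0.32 for Grg3 over control (adjusted p = 0.196). The larger reductase subunit, Rrm1, had changes of log2 0.12 and 0.05 in these comparisons.

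**Figure D2:**
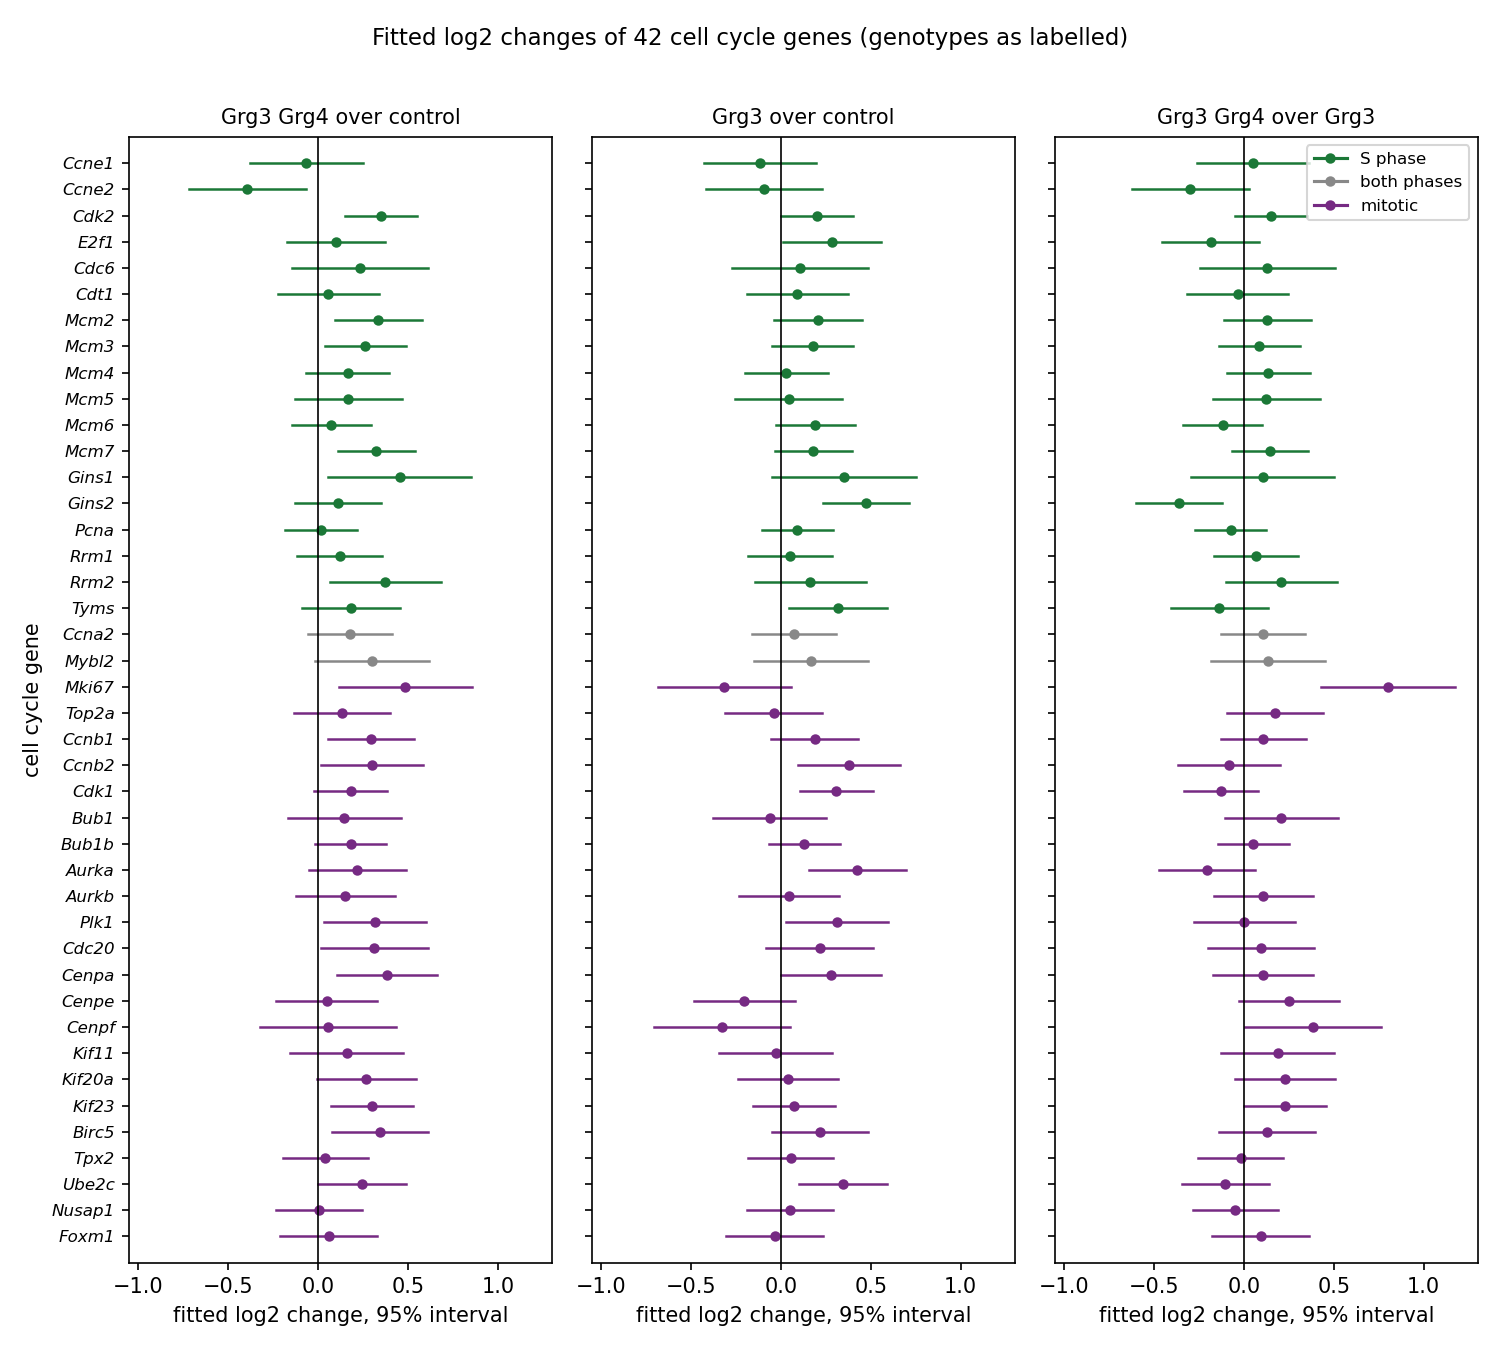
Fitted log2 changes of the 42 genes with 95% intervals (x axis) for Grg3Grg4 over control, Grg3 over control and Grg3Grg4 over Grg3, coloured by phase. Most points in the first panel lie right of 0 while none passed an adjusted p of 0.05, and Mki67 at log2 0.80 stands farthest out in the third.

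Among the mitotic genes, Mki67 had the largest difference of any member in both comparisons of the Grg3Grg4 group, though not for Grg3 over control. Mki67 (GRCm38 chr7:135689784-135716361, minus strand) encodes the Ki-67 protein that coats mitotic chromosomes and is the common marker of proliferating cells. It had 284, 254 and 231 CPM in libraries labelled Grg3Grg4, 138, 161 and 142 CPM in those labelled Grg3, and 137, 183 and 229 CPM in control libraries. The Grg3Grg4 libraries all lay above every other library, and the control libraries alone spanned from the lowest value of the 9 to nearly the Grg3Grg4 level. The change was log2 0.80 (SE 0.17, adjusted p = 0.081) for Grg3Grg4 over Grg3, log2 0.49 (SE 0.17, adjusted p = 0.145) for Grg3Grg4 over control and log2 -0.31 (SE 0.17, adjusted p = 0.338) for Grg3 over control. Both changes over control moved with the control library left out. Without control library 1 they were log2 0.31 for Grg3Grg4 and -0.49 for Grg3, and without control library 3 they were 0.68 for Grg3Grg4 and -0.12 for Grg3. Top2a had 163, 139 and 130.3 CPM in Grg3Grg4-labelled libraries and 110.3, 140.1 and 133 CPM in Grg3-labelled ones, against 121, 129 and 144 CPM in controls. Its groups overlapped in all comparisons, with changes of log2 0.13 for Grg3Grg4 over control and -0.04 for Grg3 over control, the second being 0.16 with no TMM scaling. Foxm1, the transcription factor that activates many mitotic genes, had 36.7, 33.8 and 34 CPM in libraries labelled Grg3Grg4, 28.7, 38.5 and 30.6 CPM in those labelled Grg3, and 37.6, 30.2 and 32.5 CPM in control libraries. Those groups overlapped too, and the changes were log2 0.06 for Grg3Grg4 over control and -0.03 for Grg3 over control, the second being 0.17 with no TMM scaling.

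Cdk1 and the B-type cyclins, which together form the kinase that starts mitosis, lay above control in both comparisons. Cdk1 had 41.4, 39.4 and 36.1 CPM in Grg3Grg4-labelled libraries and 38.2, 46 and 43.4 CPM in Grg3-labelled ones, against 36.2, 32.3 and 34.6 CPM in controls. The Grg3 libraries were all above the control libraries, by log2 0.31 (SE 0.09, adjusted p = 0.118), and the Grg3Grg4 libraries overlapped with control narrowly. Ccnb1, which encodes cyclin B1, had 25, 21.6 and 21.2 CPM in libraries labelled Grg3Grg4, 19.8, 21.5 and 21.6 CPM in those labelled Grg3, and 20.5, 16.5 and 18.2 CPM in control libraries. Here it was the Grg3Grg4 libraries that lay above all control libraries, log2 0.30 (SE 0.11, adjusted p = 0.165). Ccnb2, which encodes cyclin B2, had 31.9, 28.3 and 27 CPM in Grg3Grg4-labelled libraries and 25.8, 36.2 and 30.4 CPM in Grg3-labelled ones, against 25.7, 23.5 and 21.8 CPM in controls. Both groups lay above control, at log2 0.30 (SE 0.13, adjusted p = 0.228) for Grg3Grg4 and log2 0.38 (SE 0.13, adjusted p = 0.149) for Grg3. Ccnb1 and Ccnb2, like Pcna and Tyms, have processed copies listed in the files, so reads shared with those copies make their levels uncertain.

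The mitotic kinases Aurka, Aurkb, Plk1, Bub1 and Bub1b had changes of log2 0.15 to 0.32 for Grg3Grg4 over control and -0.06 to 0.42 for Grg3 over control. Aurka, which encodes the Aurora A kinase of the spindle poles, had 18.8, 15.1 and 13.7 CPM in libraries labelled Grg3Grg4, 17.8, 19.3 and 17.8 CPM in those labelled Grg3, and 14.2, 13.1 and 13.7 CPM in control libraries. All Grg3 libraries stood above all control libraries, log2 0.42 (SE 0.12, adjusted p = 0.108), while the Grg3Grg4 libraries spread over both levels, log2 0.22 (SE 0.12, adjusted p = 0.348). For the partners of the anaphase-promoting complex, which marks mitotic proteins for destruction, Ube2c had a log2 change of 0.35 for Grg3 over control (adjusted p = 0.134) and Cdc20 had one of 0.31 for Grg3Grg4 over control (adjusted p = 0.225). Only the first was separated from control.

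The centromere and kinetochore genes Cenpa, Cenpf and Cenpe had fitted changes of log2 0.38, 0.06 and 0.05 for Grg3Grg4 over control, and lay on both sides of control for Grg3. Cenpa, which encodes the histone variant that defines centromeres, had 27.9, 25.4 and 21.8 CPM in Grg3Grg4-labelled libraries and 20.5, 24.9 and 24.5 CPM in Grg3-labelled ones, against 21.1, 17.2 and 19.3 CPM in controls. The Grg3Grg4 libraries lay above control, log2 0.38 (SE 0.13, adjusted p = 0.129), and the Grg3 libraries overlapped with it, log2 0.28 (SE 0.13, adjusted p = 0.261). Cenpf, a large kinetochore protein gene, had 41.1, 44.7 and 45.3 CPM in libraries labelled Grg3Grg4, 30.7, 38.5 and 31.2 CPM in those labelled Grg3, and 30.0, 46.7 and 49.5 CPM in control libraries. Control library 1 was the lowest of all 9 and control library 3 the highest, so that the Grg3 libraries, log2 -0.33 (SE 0.17, adjusted p = 0.324) against control, lay within the control range. The Grg3Grg4 libraries were separated from the Grg3 libraries for Cenpf, log2 0.38 (SE 0.17, adjusted p = 0.279). Cenpe, a kinesin of the kinetochore, had 33.9, 31.6 and 27.4 CPM in Grg3Grg4-labelled libraries and 24.5, 29.6 and 23.9 CPM in Grg3-labelled ones, against 26.9, 28.6 and 34.3 CPM in controls. All of its groups overlapped, with changes of log2 -0.20 for Grg3 over control (0.00765 with no TMM scaling) and 0.25 for Grg3Grg4 over Grg3.

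The remaining mitotic genes encode the spindle motors Kif11, Kif20a and Kif23, the microtubule proteins Tpx2 and Nusap1, and the chromosomal passenger protein Birc5. The 5 motor and microtubule genes ran from log2 0.00 to 0.30 for Grg3Grg4 over control and from -0.03 to 0.07 for Grg3 over control. Kif23, needed for the final cut between daughter cells, had the highest of these, at log2 0.30 (adjusted p = 0.144). Nusap1 had 30.3, 26.1 and 25.6 CPM in libraries labelled Grg3Grg4, 25.3, 30.5 and 28.9 CPM in those labelled Grg3, and 29.7, 25 and 26.9 CPM in control libraries. Its groups overlapped throughout and it had the smallest change of any mitotic gene for Grg3Grg4 over control, at log2 0.00. Birc5 was separated from control in both comparisons, at log2 0.34 for Grg3Grg4 (adjusted p = 0.15) and 0.21 for Grg3 (adjusted p = 0.361). The 2 genes that act in both phases, cyclin A2 (Ccna2) and the factor Mybl2, had changes of log2 0.18 and 0.30 for Grg3Grg4 over control and 0.07 and 0.17 for Grg3 over control.

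**Figure D3:**
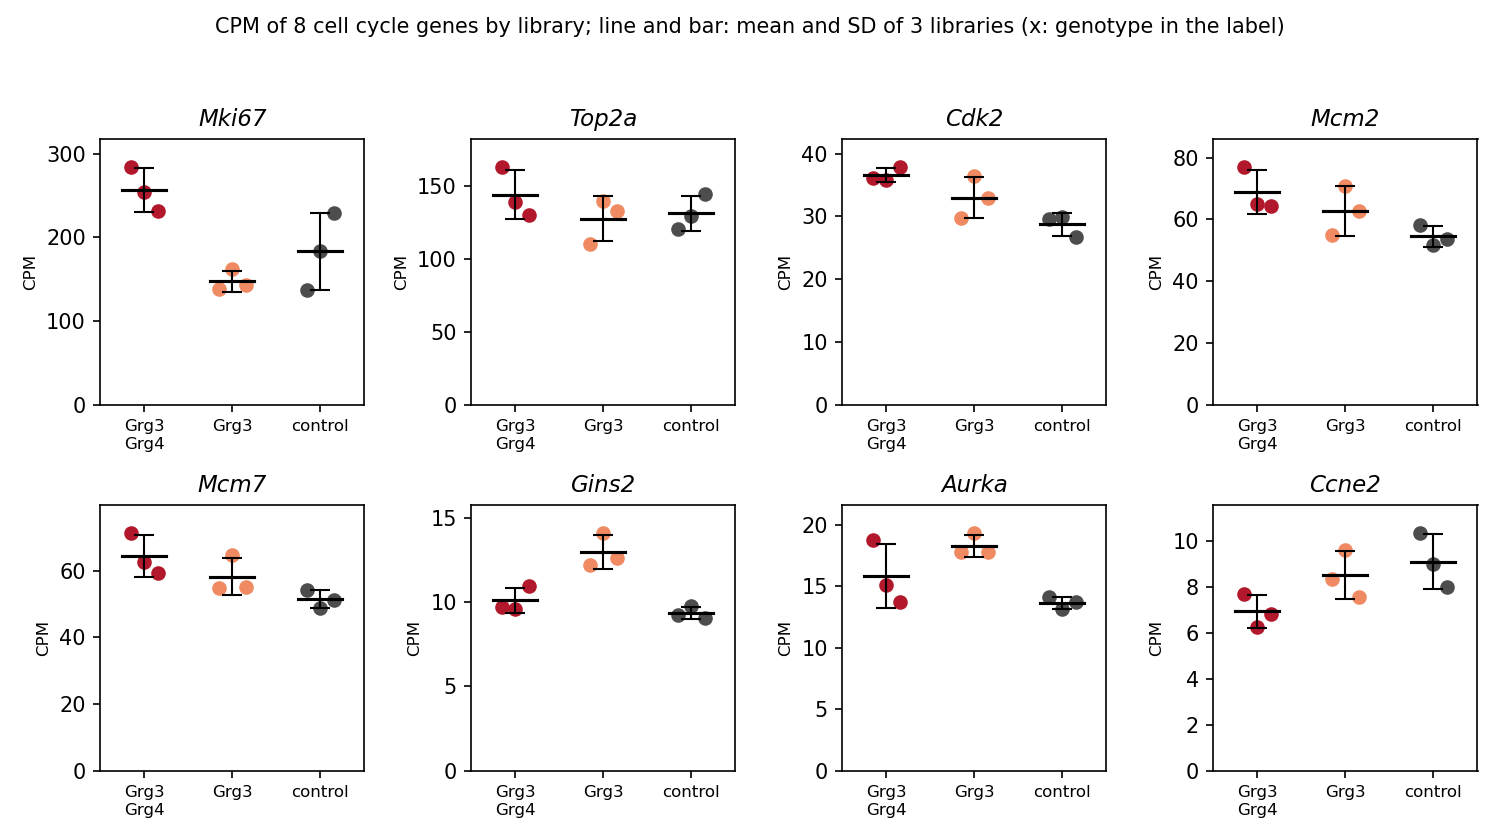
CPM of 8 of the 42 genes in each of the 9 libraries (points), with the mean (line) and SD (bar) of each group of 3. Mki67 and Cdk2 are highest in the group labelled Grg3Grg4, Gins2 and Aurka in the group labelled Grg3, and Ccne2 in the control group.

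The phases were compared by the medians of their members. For Grg3Grg4 over control the median log2 change was 0.17 for the 18 S phase genes and 0.20 for the 22 mitotic genes, a difference of -0.03. Above 0 were 16 of the 18 S phase and 22 of the 22 mitotic genes. For Grg3 over control the medians were 0.17 and 0.06, a difference of 0.11, with 16 of 18 and 15 of 22 above 0. For Grg3Grg4 over Grg3 they were 0.08 and 0.11, a difference of -0.03, with 11 of 18 and 16 of 22 above 0. No test was made of these medians. By the means of the members' log2 changes in place of their medians, the S phase minus mitotic difference was -0.05 for Grg3Grg4 over control, 0.06 for Grg3 over control and -0.11 for Grg3Grg4 over Grg3. Between single libraries of a group, the S phase mean minus the mitotic mean had an SD of 0.0629 on the log2 scale. The differences above are between groups of libraries, not single libraries, so that SD is no threshold for them. Which comparison set the phases farthest apart depended on the choice of mean or median. Single libraries moved the medians too. For Grg3Grg4 over control the S phase median was 0.0669 and the difference -0.0884 without library 1 labelled Grg3Grg4, and the difference was 0.0107 without library 2 of that label. For Grg3 over control the difference was 0.0336 without library 1 labelled Grg3, and the mitotic median was -0.014 without library 2 of that label. For Grg3Grg4 over Grg3 the difference ran from -0.0743 to -0.0129 as each library was left out, and the S phase median was -0.0135 without library 1 labelled Grg3Grg4.

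Per library, the mean log2 CPM of the S phase genes, relative to the 9 libraries, was 0.20, -0.01 and -0.03 in libraries 1 to 3 labelled Grg3Grg4, -0.07, 0.20 and 0.01 in those labelled Grg3, and -0.03, -0.13 and -0.15 in control libraries. The same mean of the mitotic genes was 0.23, 0.13 and -0.03 in libraries labelled Grg3Grg4, -0.15, 0.13 and -0.01 in those labelled Grg3, and -0.09, -0.14 and -0.07 in control libraries. Library 1 labelled Grg3Grg4 and library 2 labelled Grg3 were high in both phases. The libraries labelled Grg3Grg4 lay above the control libraries in both means, in each by a margin of less than the SD between libraries of a group (0.116 for S phase and 0.113 for mitosis), and the Grg3 libraries overlapped with control. The S phase mean minus the mitotic mean was -0.03, -0.14 and 0.00 in libraries labelled Grg3Grg4, 0.08, 0.07 and 0.02 in those labelled Grg3, and 0.06, 0.01 and -0.08 in control libraries. All Grg3 values of this difference lay above all Grg3Grg4 values, and the control libraries ranged over both.

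**Figure D4:**
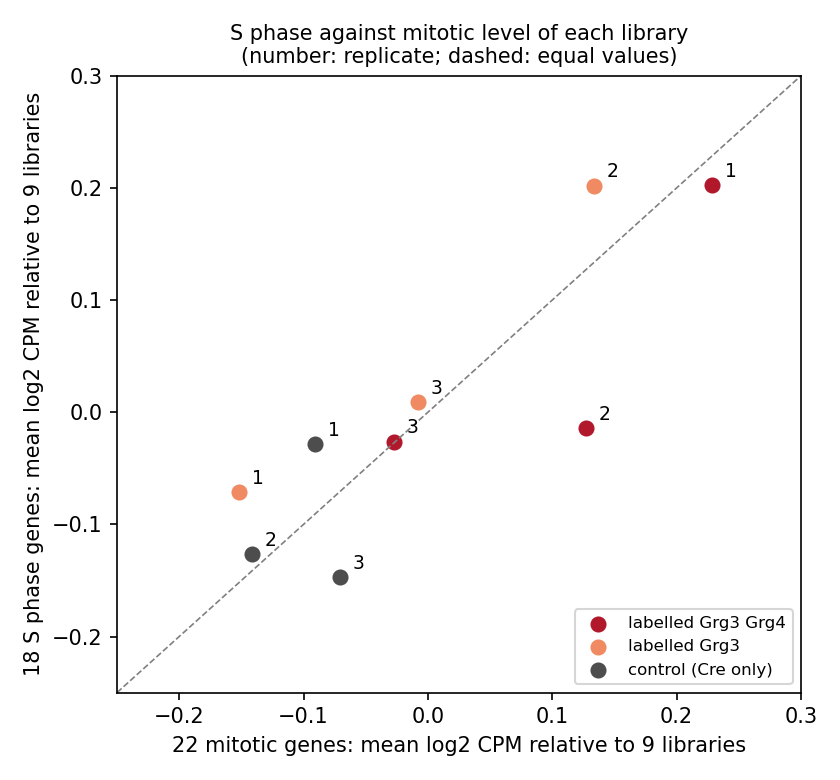
Mean log2 CPM of the 18 S phase genes (y axis) against that of the 22 mitotic genes (x axis) in each library, relative to the mean of the 9 libraries, with replicate numbers beside the points and a dashed line of equal values. Library 1 labelled Grg3Grg4 (0.23 and 0.20) and library 2 labelled Grg3 (0.13 and 0.20) lie at the upper right, and the control libraries lie at the lower left with library 1 labelled Grg3.

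Transcript length moved with some of these differences. Mki67, Cenpf, Cenpe, Top2a and Rrm1 are the 5 members with a transcript of 5 kb or more, and 4 of them are mitotic genes. Control library 3 minus control library 1 was log2 0.745 for Mki67, 0.72 for Cenpf, 0.35 for Cenpe, 0.26 for Top2a and 0.04 for Rrm1. Control library 1 was male and control library 3 female by the sex-linked genes. Across the 42 genes this difference had a rank correlation of 0.552 with the length of the longest transcript. Each library's deviation from its group mean correlated with length at -0.524, 0.103 and 0.515 in control libraries 1 to 3. In the other libraries that correlation was weaker, from -0.201 in library 1 labelled Grg3 to 0.18 in library 3 labelled Grg3Grg4. The rank correlation of length with the fitted change was -0.433 for Grg3 over control, -0.216 for Grg3Grg4 over control and 0.314 for Grg3Grg4 over Grg3. These are descriptions across genes, which share the libraries and are not independent replicates. The part of length in the lower Mki67, Cenpf and Cenpe values of libraries labelled Grg3 was not tested.

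**Figure D5:**
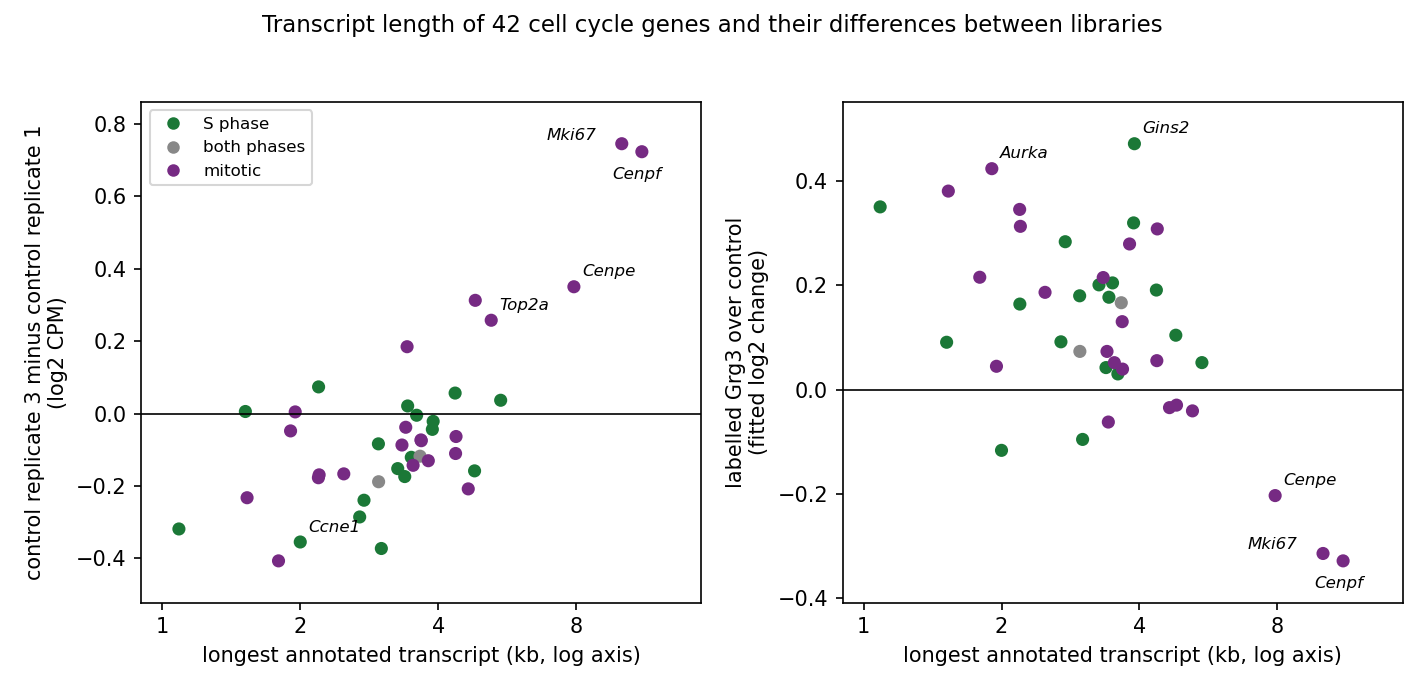
Length of the longest annotated transcript (x axis, log scale) against the difference between control libraries 3 and 1 (left, log2 CPM) and against the fitted log2 change of Grg3 over control (right), 1 point per gene of the 42, coloured by phase. Mki67 and Cenpf, the longest, lie at the top of the left panel and at the bottom of the right panel.

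Further genes of the same processes also had no member called. Of 38 other S phase genes, 30 lay above 0 for Grg3Grg4 over control, 26 for Grg3 over control and 27 for Grg3Grg4 over Grg3, and 0 were called. Of all genes tested, 51.9%, 52.5% and 49.7% lay above 0 in these comparisons. Of 46 other mitotic genes, 37, 29 and 29 lay above 0 in the same order, and 0 were called (edgeR). At an unadjusted p under 0.05 the counts were 10, 5 and 5 for the S phase genes (26.3%, 13.2% and 13.2%) and 4, 6 and 3 for the mitotic genes (8.7%, 13% and 6.52%), against 20.2%, 19.1% and 17.3% of all genes tested. Only the other S phase genes for Grg3Grg4 over control thus exceeded the share of all genes, while of the 42 members 35.7%, 23.8% and 7.14% passed that p. The smallest adjusted p for Grg3Grg4 over control was that of Nasp, a histone chaperone gene, at log2 0.46 (adjusted p = 0.0721), and for Grg3 over control that of Cks1b, a small subunit of cyclin-dependent kinases, at log2 0.42 (adjusted p = 0.0906). For Grg3Grg4 over Grg3 it was that of Cit, a kinase gene of cell separation, at log2 0.43 (adjusted p = 0.116).

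The members' changes were also read by promoter motif, as a description. For Grg3Grg4 over control the median log2 change was 0.265 for the 10 members with an E2F motif and 0.18 for the 23 without, and 0.27 for the 8 with TTTGAA and 0.18 for the 25 without. By CCAAT box it was 0.24 for the 25 with one and 0.14 for the 8 without. In the comparison of Grg3 over control these medians were 0.17 and 0.17 by E2F, 0.21 and 0.16 by TTTGAA, and 0.18 and 0.14 by CCAAT. Those of Grg3Grg4 over Grg3 were 0.128 and 0.0855 by E2F, 0.1145 and 0.105 by TTTGAA, and 0.109 and 0.0089 by CCAAT. Cdk2 and Mcm7, the members with the smallest p for Grg3Grg4 over control, have an E2F motif in the searched window, and Cenpa, the next, has none. Mcm6 has 4 E2F motifs and had a change of log2 0.07.

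Whether members were called depended on the scaling. TMM scaling sets the bulk of genes level between libraries, and its factors were 1.05 to 1.11 in libraries labelled Grg3Grg4, 0.918 to 1.16 in those labelled Grg3 and 0.868 to 0.936 in control libraries. In shares of all gene counts, without TMM, the 42 genes summed to 2136, 2018 and 1785 CPM in libraries labelled Grg3Grg4, 1547, 2144 and 1510 CPM in those labelled Grg3, and 1465, 1351 and 1489 CPM in control libraries. On that scale the libraries labelled Grg3Grg4 all stood above control, and with TMM the same sums were 2018, 1816 and 1706 CPM in libraries labelled Grg3Grg4, 1500.0, 1847 and 1646 CPM in those labelled Grg3, and 1565, 1558 and 1642 CPM in control libraries. With no TMM scaling, chosen as an alternative after the data were seen, 9 members were called for Grg3Grg4 over control (Birc5, Ccnb1, Cdk2, Cenpa, Kif23, Mcm2, Mcm7, Mki67 and Rrm2), while 9.15% of all genes were called. Gins2 alone was called for Grg3 over control (all genes 3.36%) and 0 members for Grg3Grg4 over Grg3 (all genes 0.11%). That scaling moved the median of all genes by 0.25, 0.20 and 0.05 in these comparisons. Relative to that median, the members' median stood 0.17 above for Grg3Grg4 over control and 0.10 above for Grg3 over control, against 0.17 and 0.10 with TMM.

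By the DESeq2 Wald test, 2 members were called in each comparison. For Grg3Grg4 over control they were Cdk2 (adjusted p = 0.0176) and Mcm7 (adjusted p = 0.0446), with 8.16% of all genes called. For Grg3 over control they were Gins2 (adjusted p = 0.00472) and Aurka (adjusted p = 0.032), with 8% of all genes called. For Grg3Grg4 over Grg3 they were Mki67 (adjusted p = 0.000352) and Gins2 (adjusted p = 0.0494), with 5.81% of all genes called. By limma with voom, Cdk2 alone (2.38% of the members) was called for Grg3Grg4 over control, with 5.39% of all genes called. It called 0 members for Grg3 over control (all genes 2.2%) and for Grg3Grg4 over Grg3 (all genes 0.125%).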

How the data were processed

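Each library's deposited file lists raw read counts for 55453 gene symbols, which the authors left unnormalized as far as the values show. Among tools, the submitters' processing notes list HISAT2, HTSeq and DESeq2, besides FastQC, Trim Galore and bedtools. Their builds are mm10 and GRCm38. Roles, versions, annotation and strand setting: not given in the sources used here. Rows that name no gene, 5 per file, stayed out of all tests and held 28.5% to 33.2% of a library's reads, 15.8% to 20.8% being reads aligned to several places.

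Counts were tested with edgeR 4.0.16 (R 4.3.3) by its 2-sided quasi-likelihood F test, with TMM scaling, filterByExpr (minimum count 10, minimum total 15), all 9 libraries in 1 fit and Benjamini-Hochberg adjustment over 19166 genes, called at 0.05. CPM values are TMM-scaled, and log2 CPM used a prior count of 2. Alternatives used DESeq2 1.42.0, limma 3.58.1, other scalings and filters, a replicate block, embryo sex as a term and leaving out each library. The fits were tested on simulated data. Replicates differed beyond counting noise (chi-square per degree of freedom 17.1 to 193). Gene lengths came from GENCODE M21 on GRCm38, which placed 99.2% of tested genes and may not be the authors' annotation, and promoters from RefSeq.

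Library values are given for 20 members, 8 fixed by name and the others by the smallest p and the highest and lowest changes in each comparison, and the other 22 by range or single values. The members and lists were chosen with earlier results of these data known.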

Additional observations from a re-analysis of the deposited data

How the results depend on the processing

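With 3 libraries a group, SEs of the members' log2 changes were 0.0886 to 0.179, which limits what could be called. DESeq2 size factors and leaving out the acinar enzyme genes changed no call and no side of 0 for any summary. The number of members called for Grg3Grg4 over control was 2 by the DESeq2 Wald test, 1 by limma with voom (Cdk2, adjusted p = 0.0357), 1 with only the 6 libraries compared (Cdk2, adjusted p = 0.0428), 9 with no TMM scaling, and 0 to 1 when each library was left out (Cdk2 without library 2 labelled Grg3, adjusted p = 0.0425). It was 2 by DESeq2 and 1 with no TMM scaling for Grg3 over control, and 2 by DESeq2 and 1 with no count filter (Mki67, adjusted p = 0.0194) for Grg3Grg4 over Grg3. With no TMM scaling the S phase and mitotic medians were 0.37 and 0.27 for Grg3 over control and 0.41 and 0.45 for Grg3Grg4 over control. The S phase minus mitotic median for Grg3 over control ranged from 0.0336 to 0.106 when each library was left out. The same-numbered libraries deviated together no more than others (correlations -0.0858 to 0.094 over 9 pairs, against -0.148 to 0.165). These values show no pairing by number but cannot exclude one. With the replicate block 0 members were called in each comparison, and 254, 167 and 11 of all genes for Grg3Grg4 over control, Grg3 over control and Grg3Grg4 over Grg3. Embryo sex as a term left 30, 169 and 4 of all genes and 0 members called. DESeq2 called 1553, 1463 and 1019 of all genes, voom 1033, 421 and 24, no filter 930, 586 and 228, the 6 libraries alone 750, 255 and 10, the filter of 1 CPM 476, 300 and 75, no TMM scaling 1754, 644 and 21, and leaving out each library 50 to 825, 32 to 327 and 6 to 49. Uncalled members near 0 changed sign. When each library was left out, Grg3 over control ranged from -0.171 to 0.0575 for Foxm1 (above 0 without control library 1 and without libraries 1 and 3 labelled Grg3) and from -0.112 to 0.0602 for Top2a (above 0 without control library 3 and without library 1 labelled Grg3). Grg3Grg4 over control ranged from -0.133 to 0.0646 for Ccne1 (above 0 without control library 1), from -0.00939 to 0.151 for Foxm1 (below 0 without control library 2), from -0.0775 to 0.0722 for Nusap1 (below 0 without control libraries 2 and 3 and without library 1 labelled Grg3Grg4) and from -0.0731 to 0.0748 for Pcna (below 0 without library 1 labelled Grg3Grg4). With no TMM scaling, Foxm1 was 0.17, Top2a 0.16 and Cenpe 0.00765 for Grg3 over control, and Ccne1 was 0.18 for Grg3Grg4 over control. The cause was not tested in any of these.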
